A study of Danio rerio with 6 samples.

Results

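The genes for the receptors of glutamate, GABA and glycine, and for the enzymes that make GABA, were examined in GFP+ cells that were sorted by FACS from retinas of adult zebrafish. Members were all gene rows of the deposited RNAseq table whose names begin with gria, grin1, grin2, grin3, grik, grm and a digit, gabr, gabbr, glra, glrb, gad1 or gad2. This rule took 65 of 30689 rows, and it used no measured value. Of the 65 rows, 58 had a level of 1 FPKM or more in 2 or more of the 6 libraries and are called expressed here. FPKM counts a gene's fragments relative to the length of its transcript and to the fragments mapped in the library, so that levels can be compared between genes. Names in capitals with a bracket, such as GRM2 (2 of 2), are the table's own names for zebrafish rows, and 47 of the 65 rows have a symbol that RefSeq lists for zebrafish. The names grm6a, grm6b and gria4b had no row of that name and were not analysed here.

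Glutamate is the main excitatory transmitter of the retina. It opens the AMPA, kainate and NMDA receptor channels and activates the metabotropic receptors, which signal through G proteins. GABA and glycine are inhibitory. They open the chloride channels of the GABA-A and glycine receptors, and GABA also activates the metabotropic GABA-B receptor. In the retina these receptors are best known from bipolar, horizontal, amacrine and ganglion cells, and GABA is made mainly by amacrine and horizontal cells. Müller glia (MG), the radial glia that divide after a retinal injury in zebrafish, carry transporters that clear glutamate, GABA and glycine.

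The RNAseq data hold 3 groups of 2 libraries, from uninjured retinas, from retinas injured with a needle poke and taken at 2 days post injury (dpi), and from retinas injured in the same way at 2 dpi that had received morpholino to knock down apobec2a and apobec2b (the knockdown). The sample labels give adult gfap:GFP fish for all 6 libraries, in which the promoter of the glial gene gfap drives GFP. The study's text, however, gives a line in which a tuba1a promoter drives GFP for the injured cells, and the table's columns for the injured group carry the name of a control morpholino. If the lines did differ, injury and the line that drove GFP cannot be told apart. If the injured group received that control morpholino and the uninjured group none, injury and morpholino cannot be told apart between them either. Libraries are named a and b within a group, and the labels do not say that they came from separate fish, so p-values measure the spread between libraries, which may be technical.

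FPKM does not show how deeply a library was sequenced, so the depth is unknown here and no counting error is given. RNA of apobec2a, a target of the morpholino, was low throughout, with 0.15 and 0.41 FPKM in the uninjured, 0.25 and 0.51 FPKM in the injured and 0.39 and 0.38 FPKM in the knockdown group. No row is named apobec2b, but APOBEC2 (2 of 2) was at 1.12 and 0.0 FPKM in the uninjured and 8.60 and 8.19 FPKM in the injured libraries. It was higher, at 16.8 and 15.8 FPKM, in both libraries labelled as the knockdown. A morpholino acts on translation or splicing and need not lower its target's RNA, so neither row showed the knockdown, and that group is named by its label alone. MG markers were present in every library, but markers of other cells were as well. The sorted fraction held RNA of the rod gene rho at 3200 to 8087 FPKM, of the bipolar cell gene vsx1 at 189 to 233 FPKM and of the neuronal synaptic vesicle fusion gene snap25b at 537 to 706 FPKM. In bulk RNA of such a fraction, fewer cells of a type and less RNA per cell cannot be told apart, nor can receptor RNA of MG and of neurons that were sorted with them.

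RNA of some receptor genes and of gad genes was present at high levels in the uninjured libraries. The summed level of the 65 rows was 2160 and 2276 FPKM, and 4 genes, grin1a, grin1b, gad1b and gad2, held 55.6% and 58.4% of it. The level of grin1b, a gene for the NMDA receptor subunit that every such receptor needs, stood above 99.0% to 99.6% of all rows in a library. For gad1b this share was 98.7% to 99.5%, for grin1a 98.0% to 99.4% and for gad2 97.3% to 98.5%. In all 6 libraries 50 of the rows reached 1 FPKM, 25 reached 5 FPKM and 14 reached 20 FPKM. All rows of the AMPA (3 of 3), kainate (6 of 6), GABA-B (3 of 3), glycine (7 of 7) and gad (3 of 3) classes were expressed, as were 20 of 21 GABA-A rows, 8 of 9 metabotropic glutamate rows and 8 of 13 NMDA rows. The 7 rows that were not expressed were gabrr2b, GRIN2B (1 of 2), grin2da, grin2db, GRIN3B (2 of 2), grin3b and grm3, and none of them exceeded 0.94 FPKM in any library.

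**Figure D1:**
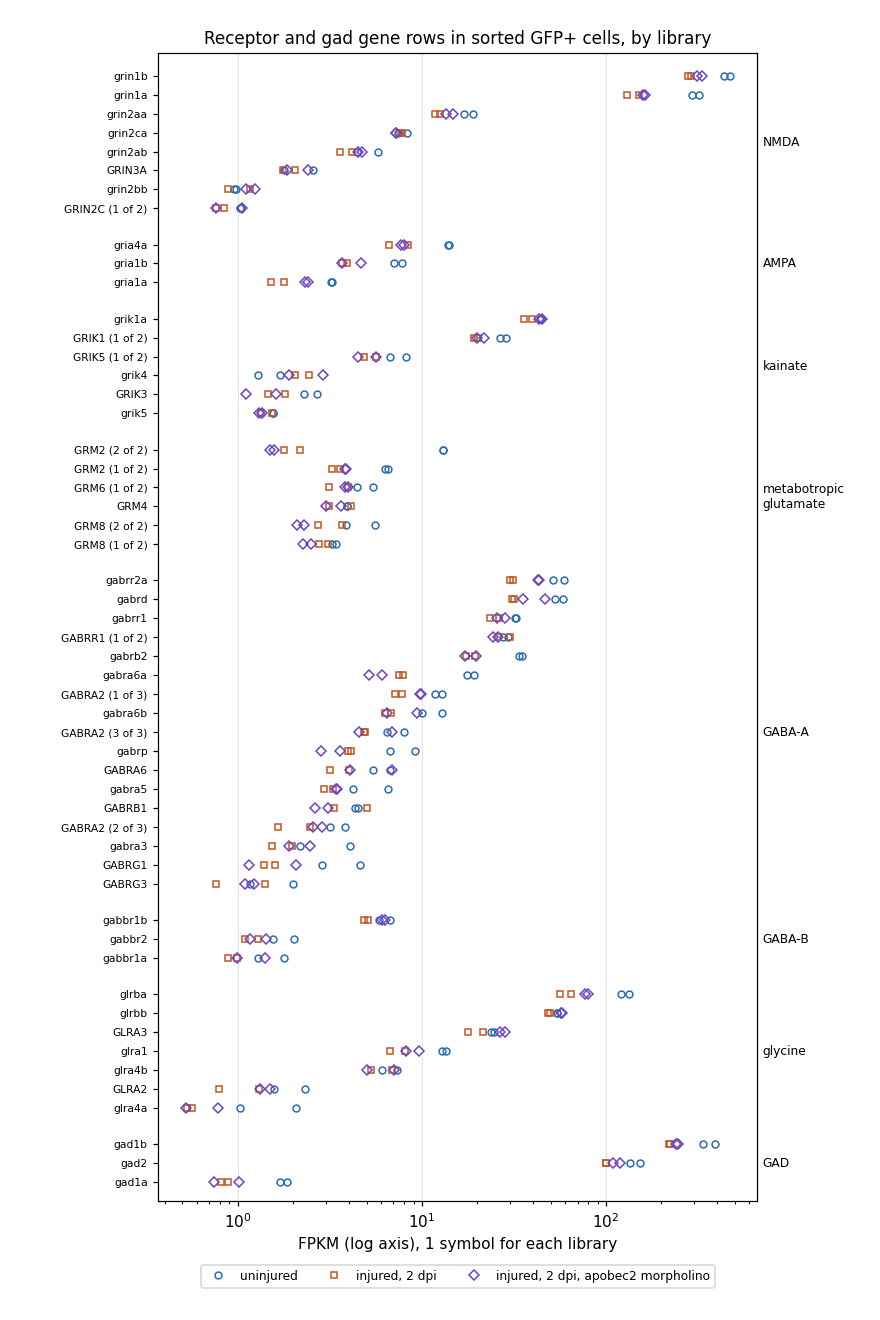
The level in FPKM (log axis) of 53 of the expressed rows, grouped by class and ordered by mean level, with 1 symbol for each library of the uninjured, injured and knockdown groups. The uninjured symbols of grin1b, at 437 and 469 FPKM, lie to the right of all others, and in 44 of these rows both injured symbols lie to the left of both uninjured ones.

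The first comparison asked which receptor genes changed with injury. After injury 28 of the 57 rows tested had fallen and 0 had risen (limma on log2(FPKM + 1), adjusted p under 0.05). In the same fit 18.4% of the 17195 rows tested were called lower and 28.8% higher, or 47.2% in all. The members were called lower in 49.1% of cases, above the share of all rows, and called higher below it. Counted in either direction, they were called about as often as all rows. Of the 57 rows 36 had an unadjusted p under 0.05 (55.9% of all rows). Both injured libraries lay below both uninjured ones in 48 of 57 rows (33.5% of all rows), and above them in 1 row, grik4 (43.5% of all rows). The median log2 fold change was -0.53 over the members and 0.08 over all rows, and 56 members had a negative value. The summed level of the 65 rows went from a mean of 2218 FPKM to 1344 FPKM, which is 0.606 of the uninjured level. Under the study's rule of a 2-fold difference and more than 5 FPKM, applied to group means, 4 members were lower (7.02% against 5.12% of all rows), namely GRM2 (2 of 2), gabra6a, grin1a and glrba. With any library left out, fewer members were called lower, as were fewer of all rows. The members' median then lay between -0.60 and -0.51, or between -0.69 and -0.56 relative to the median of all rows. In at least some of these fits, calls printed below without a limit were lost too. Among them were those of GABRA2 (1 of 3), gabra6b, gabrp, gabrr2a, glra1, gria1a, gria4a, grin1b, grin2aa and the gad rows. Quantile normalization moved the median of all rows to -0.10 and the share of all calls that were higher from 61.1% to 44.7%, and with it 43 members were called lower and 0 higher. Relative to the median of all rows, the members' median was -0.61 without and -0.64 with that normalization.

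**Figure D2:**
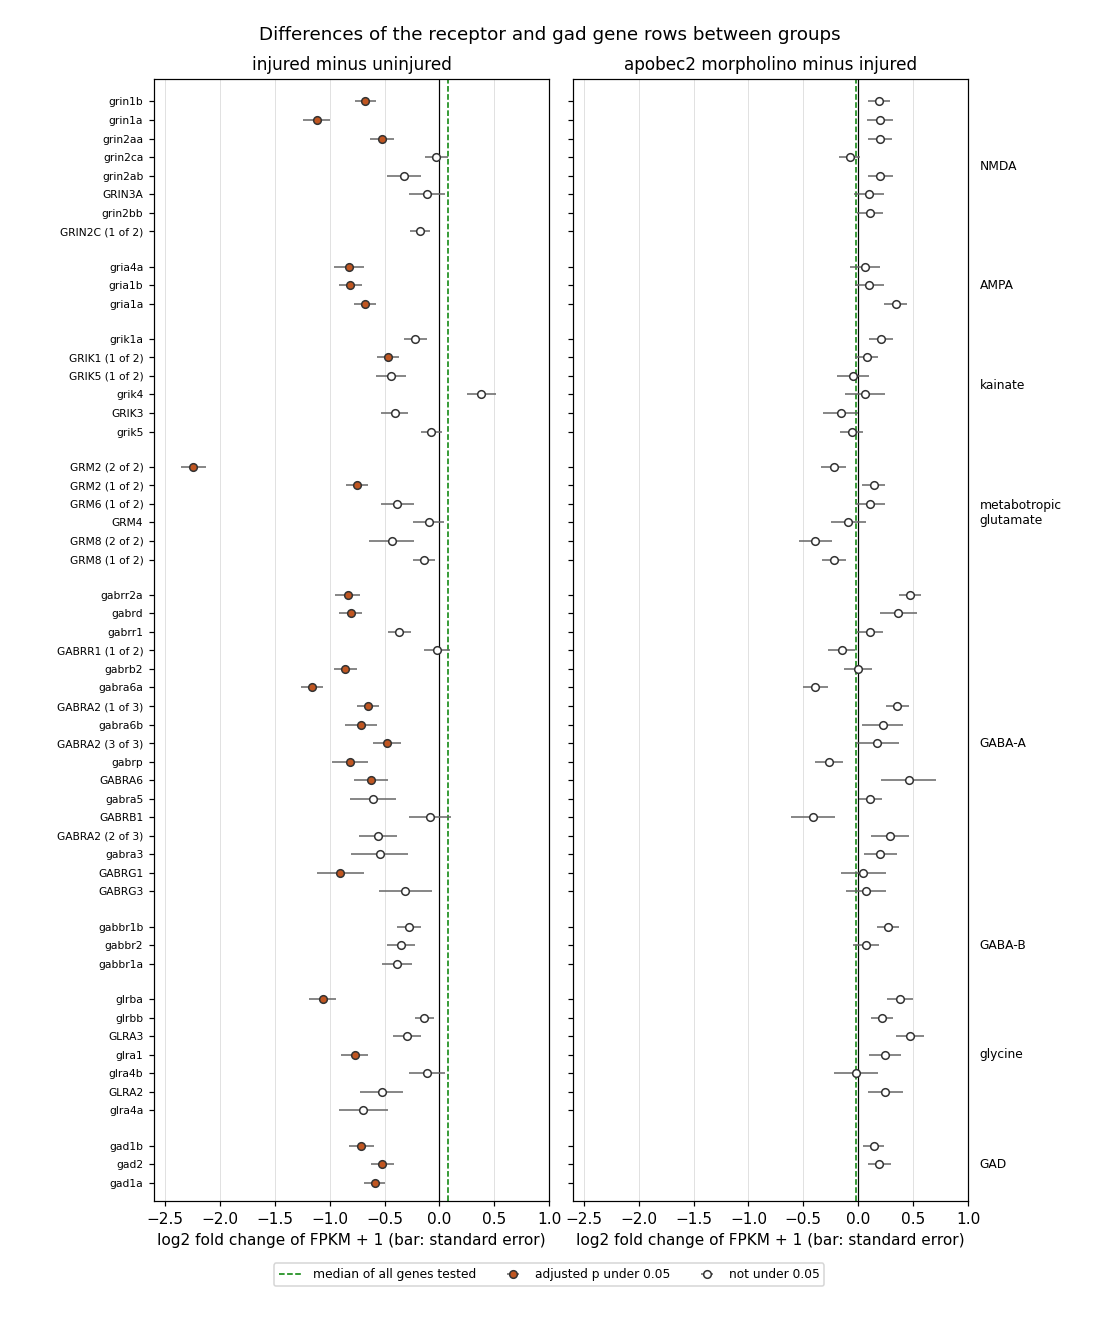
The log2 fold change of FPKM + 1 of the tested rows among these 53 with its standard error, for injured minus uninjured (left) and knockdown minus injured (right), with filled symbols for an adjusted p under 0.05 in limma. On the left 24 symbols are filled, all at negative values, and on the right none is, and the dashed line marks the median of all rows tested, at 0.08 on the left and -0.02 on the right.

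Among NMDA receptor genes both rows of grin1, which encodes the glycine-binding subunit common to all these receptors, fell. The level of grin1b (chr5:31237645-31281871, as the table lists it with no stated genome build) was 437 and 469 FPKM in uninjured and 278 and 288 FPKM in injured libraries. The level of grin1a (chr21:9892650-9926980) was 292 and 319 FPKM in uninjured and 150.5 and 130.4 FPKM in injured libraries. Both genes were thus lower in each injured library than in any uninjured one, with log2 fold changes of -0.68 ± 0.10 for grin1b (SE, adjusted p = 0.00872) and -1.12 ± 0.12 for grin1a (adjusted p = 0.00442). The subunits that bind glutamate are encoded by grin2 genes and were at much lower levels. The most abundant was grin2aa, at 16.9 and 19.0 FPKM before and 12.5 and 11.8 FPKM after injury. The groups did not overlap for grin2aa, and it fell by 0.52 on the log2 scale (SE 0.11, adjusted p = 0.0221), although its locus overlaps a 5S rRNA row and another row, so its reads could be shared. In contrast, grin2ca was at 7.42 and 8.30 FPKM before and 7.57 and 7.81 FPKM after injury, groups that overlapped (log2 fold change -0.03 ± 0.10, adjusted p = 0.852). The other rows tested, grin2ab, GRIN2C (1 of 2) and GRIN3A, had log2 fold changes between -0.32 and -0.11 and did not pass, and grin2bb had too low a level to be tested here. Summed, the 2 grin1 rows were at 0.559 and the 8 grin2 rows at 0.773 of their uninjured mean.

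All 3 AMPA receptor rows fell, beside 18.4% of all rows. They encode pore-forming subunits of the channels that carry fast excitation. The level of gria4a was 13.91 and 13.97 FPKM in uninjured and 8.37 and 6.63 FPKM in injured libraries. For gria1b it was 7.77 and 7.03 FPKM before and 3.66 and 3.91 FPKM after injury, and for gria1a 3.26 and 3.22 FPKM before and 1.52 and 1.78 FPKM after. In none of these did the groups overlap. The log2 fold changes were -0.82 ± 0.14 for gria4a (adjusted p = 0.0123), -0.81 ± 0.10 for gria1b (adjusted p = 0.00633) and -0.68 ± 0.10 for gria1a (adjusted p = 0.00961). The locus of gria4a holds a 5S rRNA row.

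Of 6 kainate receptor rows 1 fell, which is near the share of 18.4% of all rows called lower. Subunits of the grik1 to grik3 kind can form channels alone, whereas those of the grik4 and grik5 kind need one of the former. The most abundant row was grik1a, with 44.1 and 44.0 FPKM in uninjured and 35.8 and 39.8 FPKM in injured libraries, groups that did not overlap but whose difference did not pass (log2 fold change -0.22 ± 0.10, adjusted p = 0.154). Another row of the same subunit, GRIK1 (1 of 2), was at 28.7 and 26.6 FPKM before and 19.2 and 20.1 FPKM after injury. It fell by 0.47 on the log2 scale (SE 0.10, adjusted p = 0.0226). With any library left out this call was not kept, and the log2 fold change then lay between -0.525 and -0.417. The exception to the general direction was grik4. It was at 1.29 and 1.69 FPKM in uninjured and 2.42 and 2.05 FPKM in injured libraries, so that it was higher in both, but the difference did not pass (log2 fold change 0.38 ± 0.13, adjusted p = 0.08) and its locus too holds a 5S rRNA row. GRIK5 (1 of 2), GRIK3 and grik5 had log2 fold changes of -0.44, -0.41 and -0.07 with no call.

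The largest fall of any member was found among the metabotropic glutamate receptors. GRM2 (2 of 2) (chr11:37021293-37055574), a row of the group II receptor that lowers cyclic AMP and often acts on transmitter release, was at 13.0 and 13.0 FPKM in uninjured and 1.77 and 2.17 FPKM in injured libraries. The uninjured libraries were thus nearly equal, and their mean was 6.60 times the injured one (log2 fold change -2.24 ± 0.11, adjusted p = 0.0011). Its paralog row GRM2 (1 of 2) was at 6.58 and 6.28 FPKM before and 3.60 and 3.23 FPKM after injury, also with no overlap (log2 fold change -0.75 ± 0.10, adjusted p = 0.0072). The receptor through which ON bipolar cells sense glutamate is encoded by grm6. GRM6 (1 of 2) was at 5.41 and 4.45 FPKM before and 3.14 and 3.95 FPKM after injury, which did not overlap but did not pass (log2 fold change -0.38 ± 0.15, adjusted p = 0.102). GRM4 overlapped between the groups, with 3.93 and 3.90 FPKM before and 4.13 and 3.12 FPKM after injury. For GRM8 (1 of 2) and GRM8 (2 of 2) the log2 fold changes lay between -0.43 and -0.14 with no call.

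GABA-A receptors are built from subunits of several families, and 13 of 20 rows fell, beside 18.4% of all rows. The alpha and beta subunits together form the site for GABA. Of the beta subunit genes, gabrb2 was at 33.7 and 34.9 FPKM before and 19.5 and 17.4 FPKM after injury, with no overlap between groups (log2 fold change -0.86 ± 0.10, adjusted p = 0.00574). The largest fall of this class was that of gabra6a, an alpha subunit known from cerebellar granule cells of mammals. It was at 19.2 and 17.6 FPKM before and 7.84 and 7.47 FPKM after injury (log2 fold change -1.16 ± 0.10, adjusted p = 0.00278), and its locus overlaps that of nudcd2. Its paralog gabra6b was at 10.02 and 12.80 FPKM before and 6.31 and 6.77 FPKM after (log2 fold change -0.71 ± 0.15, adjusted p = 0.0214). Another row of that subunit, GABRA6, was at 5.41 and 6.73 FPKM before and 3.18 and 4.0 FPKM after injury (log2 fold change -0.62 ± 0.16, adjusted p = 0.0356), and it also holds a 5S rRNA row. This call of GABRA6 was lost with all 3 groups in the fit (adjusted p = 0.0873), with no filter on low values (adjusted p = 0.0604) and with any library left out, within a range of 0.0172 to 0.137 over all alternatives.

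The gabra2 rows of the table, again for alpha subunits, fell in part. GABRA2 (1 of 3) was at 12.8 and 11.8 FPKM in uninjured and 7.18 and 7.75 FPKM in injured libraries (log2 fold change -0.65 ± 0.10, adjusted p = 0.0109). GABRA2 (3 of 3) was at 7.97 and 6.44 FPKM before and 4.85 and 4.90 FPKM after injury (log2 fold change -0.48 ± 0.13, adjusted p = 0.043). The call of GABRA2 (3 of 3) was lost with all 3 groups in the fit (adjusted p = 0.101), with no filter (0.0641), with the library index as a block (0.063), with a pseudocount of 0.1 (0.0528) and without uninjured library a or either injured library, within a range of 0.0188 to 0.149 over all alternatives. Both of these rows were lower in each injured library. So were GABRA2 (2 of 3) and gabra3, but with log2 fold changes of -0.56 and -0.55 they did not pass. GABRB1, at 4.35 and 4.48 FPKM before and 5.06 and 3.32 FPKM after injury, overlapped. GABRG1, a gamma subunit row, fell from a low level, with 2.85 and 4.61 FPKM before and 1.38 and 1.60 FPKM after injury (log2 fold change -0.90 ± 0.21, adjusted p = 0.0301), a call that was lost with no filter (adjusted p = 0.0567) and without uninjured library b or either injured library (range over all alternatives 0.0173 to 0.126). The delta subunit replaces gamma in receptors outside the synapse, and its gene gabrd was at 52.7 and 58.5 FPKM before and 30.95 and 31.6 FPKM after injury (log2 fold change -0.81 ± 0.10, adjusted p = 0.00646). For gabrp, the gene of the pi subunit, the levels were 6.73 and 9.21 FPKM before and 3.97 and 4.14 FPKM after injury (log2 fold change -0.81 ± 0.17, adjusted p = 0.0208). None of these 3 rows overlapped between the groups.

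The rho subunits form GABA channels of their own that are typical of the retina, and their rows differed among themselves. The level of gabrr2a was 59.4 and 51.7 FPKM in uninjured and 29.9 and 31.4 FPKM in injured libraries, and it fell by 0.83 on the log2 scale (SE 0.11, adjusted p = 0.00765). The level of gabrr1 was 32.36 and 32.05 FPKM before and 23.3 and 26.4 FPKM after injury, and its log2 fold change of -0.36 ± 0.11 lay just outside the threshold (adjusted p = 0.0519). In 6 alternatives gabrr1 did pass, with adjusted p between 0.0186 (quantile normalization) and 0.0488 (rows of one symbol summed), within a range of 0.0186 to 0.19 over all alternatives. GABRR1 (1 of 2) overlapped between the groups, at 29.3 and 27.6 FPKM before and 26.1 and 30.2 FPKM after injury (log2 fold change -0.02 ± 0.12, adjusted p = 0.909). Summed over rows, the alpha subunits were at 0.546 and the rho subunits at 0.721 of their uninjured mean.

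Many GABA-A genes are neighbours. With gaps of at most 200 kb between members, 14 rows lay in 5 clusters, and all 14 encode GABA-A subunits. On chromosome 14, gabra6a and gabrb2 lay within 134 kb and both fell. On chromosome 13, GABRA2 (1 of 3), GABRA2 (3 of 3) and GABRG1 fell and GABRB1, in the same 349 kb, had a log2 fold change of -0.08. On chromosome 20, gabrr1 did not pass, and gabrr2b, in the same 40.1 kb, had too low a level to be tested. The remaining clusters are not reported here.

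The GABA-B receptor rows were low and none of the 3 passed. The subunit that binds GABA is encoded by gabbr1, and that which couples to the G protein by gabbr2. The most abundant row, gabbr1b, was at 5.82 and 6.74 FPKM in uninjured and 4.87 and 5.11 FPKM in injured libraries, which did not overlap (log2 fold change -0.28 ± 0.11, adjusted p = 0.108), and a 5S rRNA row lies in its locus. For gabbr1a and gabbr2 the log2 fold changes were -0.38 and -0.35.

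Of 7 glycine receptor rows 2 fell, beside 18.4% of all rows that were called lower. The beta subunit, which anchors the receptor to the scaffold protein gephyrin, is encoded by 2 genes that differed. The level of glrba (chr1:20205661-20266484) was 133 and 121 FPKM in uninjured and 64.7 and 56.0 FPKM in injured libraries, and it fell by 1.06 on the log2 scale (SE 0.12, adjusted p = 0.00501). The level of glrbb was 53.9 and 53.9 FPKM before and 49.3 and 48.5 FPKM after injury (log2 fold change -0.14 ± 0.09, adjusted p = 0.272). Both were lower in each injured library, but only the former passed the test. The alpha subunits bind glycine. Of their genes, glra1 was at 12.9 and 13.6 FPKM before and 6.68 and 8.06 FPKM after injury and fell by 0.77 on the log2 scale (SE 0.12, adjusted p = 0.0113). GLRA3, the most abundant alpha row, was at 24.6 and 23.7 FPKM before and 21.3 and 17.8 FPKM after injury (log2 fold change -0.29 ± 0.12, adjusted p = 0.123). For GLRA2, glra4a and glra4b the log2 fold changes lay between -0.69 and -0.11 with no call.

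All 3 rows for glutamate decarboxylase, the enzyme that makes GABA from glutamate, fell, beside 18.4% of all rows. The level of gad1b was 337 and 388 FPKM in uninjured and 218 and 222 FPKM in injured libraries. For gad2 it was 136 and 153 FPKM before and 99.8 and 100.4 FPKM after injury, and for gad1a 1.70 and 1.85 FPKM before and 0.88 and 0.81 FPKM after. The injured libraries were the lower ones for each gene. The log2 fold changes were -0.71 ± 0.11 for gad1b (adjusted p = 0.0111), -0.52 ± 0.11 for gad2 (adjusted p = 0.0211) and -0.59 ± 0.09 for gad1a (adjusted p = 0.0115). The level of gad1a is low, and a 5S rRNA row lies in its locus.

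Ratios between related genes within a library do not depend on a scaling factor common to all genes of that library. The ratio of grin1b to grin1a was 1.498 and 1.469 in uninjured, 1.85 and 2.21 in injured and 1.98 and 2.04 in knockdown libraries. The ratio of glrba to glrbb was 2.47 and 2.25 in uninjured, 1.311 and 1.154 in injured and 1.36 and 1.40 in knockdown libraries. That of GRM2 (2 of 2) to GRM2 (1 of 2) was 1.98 and 2.07, then 0.492 and 0.672, then 0.409 and 0.386. In each of these 3 pairs the uninjured libraries stood apart from the other 4. The ratio of gad1b to gad2 moved less, from 2.49 and 2.54 in uninjured to 2.19 and 2.22 in injured libraries. The summed GABA-A alpha rows were 1.34 and 1.33 times the rho rows in uninjured and 1.04 and 0.987 times in injured libraries, and the grin1 rows were 22.7 and 21.5 times the grin2 rows before and 15.6 and 16.3 times after injury. With 2 libraries against 2, an exact permutation test cannot go below p = 0.333 (two-sided). Of 18 ratios computed, 14 reached that value between uninjured and injured libraries, those above among them, and 4 did not. Among the latter, gria1b to gria1a was 2.38 and 2.18 before and 2.41 and 2.20 after injury (exact permutation p = 0.667), and grin2aa to grin2ab and GRM8 (2 of 2) to GRM8 (1 of 2) also overlapped. A permutation p of 0.333 means only that the 2 groups did not overlap. Among all single rows, 33.5% did not overlap downward and 43.5% upward. Some ratios share rows, and no share for other gene pairs was computed, so these counts are no result about the pairs.

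**Figure D3:**
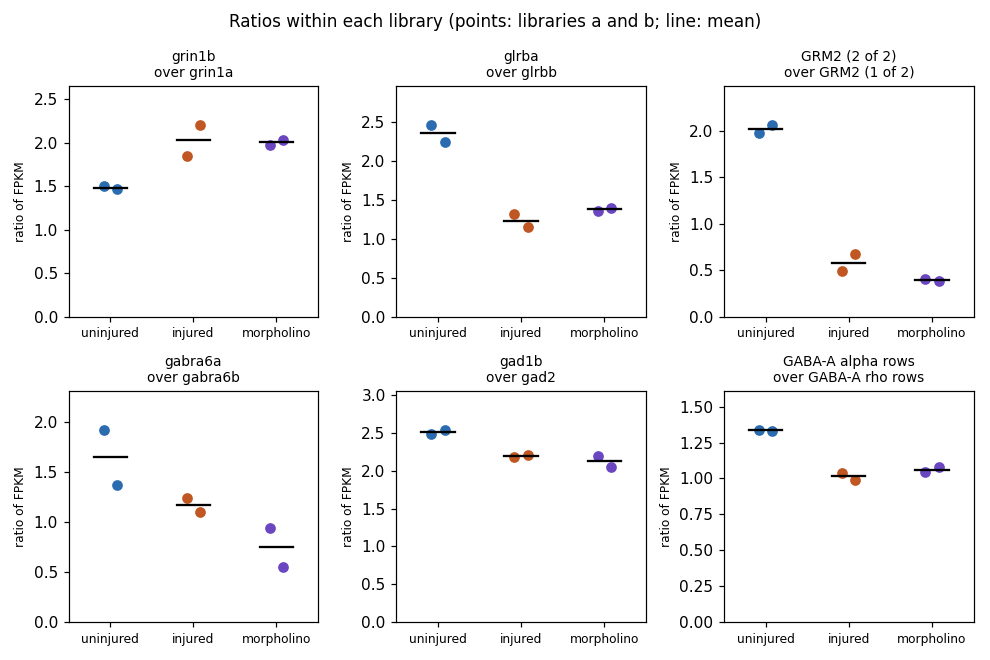
The ratio of FPKM between related rows within each library (linear axis from 0), with points for libraries a and b and a line for their mean. The ratio of GRM2 (2 of 2) to GRM2 (1 of 2) is 1.98 and 2.07 in the uninjured libraries and at most 0.672 in the other 4.

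Other genes of these synapses, which are no members, were compared as lists. Of 44 tested rows for receptor partners, scaffolds and transmitter transporters, 21 fell and 3 rose. This count of 24 was lower when any library was left out, as was the count over all rows. Of the partners of AMPA and kainate receptors, 6 of 14 fell and 0 rose, beside the 18.4% of all rows that were called lower. Of the inhibitory synapse scaffold, 8 of 11 fell and 1 rose, of the excitatory scaffold 4 of 14 fell and 2 rose, and of the vesicular transmitter transporters 2 of 4 fell. A large fall was that of cnih3, an auxiliary AMPA receptor subunit (6.84 and 5.0 FPKM before and 1.45 and 1.60 FPKM after injury, log2 fold change -1.44 ± 0.16, adjusted p = 0.00475). The largest rise was that of kctd12.2, an auxiliary GABA-B receptor subunit (15.2 and 18.9 FPKM before and 29.7 and 25.2 FPKM after, log2 fold change 0.66 ± 0.16, adjusted p = 0.0312). Its paralog kctd12.1 fell (18.4 and 16.2 FPKM before and 7.64 and 7.93 FPKM after, log2 fold change -1.06 ± 0.11, adjusted p = 0.00379). The next rise was that of dlg3, a scaffold of NMDA receptors (6.32 and 5.61 FPKM before and 9.99 and 8.78 FPKM after, log2 fold change 0.58 ± 0.12, adjusted p = 0.0211). Another row of that name, DLG3, overlapped between the groups (6.96 and 9.31 FPKM before and 13.2 and 6.0 FPKM after, log2 fold change 0.14 ± 0.39, adjusted p = 0.789).

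Markers of the cell types that carry these receptors are set beside them, since they were measured in the same libraries. The counts of markers below stand beside 18.4% of all rows called lower and 28.8% called higher in the same fit. Of 9 generic neuron markers 3 rose and 2 fell, with a median log2 fold change of -0.03 and a summed level of 1627 and 1683 FPKM before and 1398 and 1283 FPKM after injury. Those that rose were stmn2a, stmn2b and elavl4 (log2 fold changes 1.31, 1.67 and 1.44). Those that fell were the synaptic genes snap25a (-0.75) and snap25b (-0.39), so the median hides changes in both directions. Of 10 bipolar cell markers 2 fell (median -0.33, sums of 2949 and 2856 FPKM before and 3006 and 3121 FPKM after injury), of 7 amacrine cell markers 2 fell (median -0.25, sums of 572 and 590.3 FPKM before and 318 and 311 FPKM after), and of 8 ganglion cell markers 2 fell (median -0.22, sums of 982 and 956 FPKM before and 601 and 569 FPKM after). Of 5 horizontal cell markers none passed (median 0.24, sums of 112 and 121 FPKM before and 113 and 112 FPKM after). Most of that sum was tfap2a, which is in the amacrine cell list as well (79.5 and 87.4 FPKM before and 72.1 and 70.3 FPKM after). The medians of all these lists, which leave out rods and cones, lay nearer to 0 than that of the receptor and gad rows. The amacrine and ganglion cell sums, however, went down by about as much as the sum of the receptor and gad rows. Most of the bipolar cell sum was cabp5a, a calcium-binding protein gene that did not pass (2090 and 2036 FPKM before and 2326 and 2403 FPKM after injury), and the other 9 rows summed to 859 and 820.5 FPKM before and 680.1 and 718 FPKM after. Most of the amacrine cell difference was in slc6a9, a glycine transporter gene (191 and 199 FPKM before and 29.5 and 33.2 FPKM after injury), and most of the ganglion cell difference in sncgb, a synuclein gene (825 and 794 FPKM before and 468 and 456 FPKM after). Of 10 rod markers 9 fell and 1, nr2e3, rose, with a median of -1.60 (sums of 12595 and 12900 FPKM before and 4529 and 6310 FPKM after injury). Of microglia or macrophage markers 13 of 15 rose, with a median of 2.84. Oligodendrocyte markers rose in 6 of 7 rows and fell in 1, pigment epithelium markers rose in 4 of 4, cone markers rose in 4 and fell in 4 of 9, endothelium or pericyte markers rose in 1 and fell in 2 of 4, and cell cycle genes rose in 16 of 16. Of 11 MG marker rows 5 rose and 6 fell. No marker row of these lists was at 0 in all 6 libraries. The part of any of these cells in the receptor values was not tested.

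**Figure D4:**
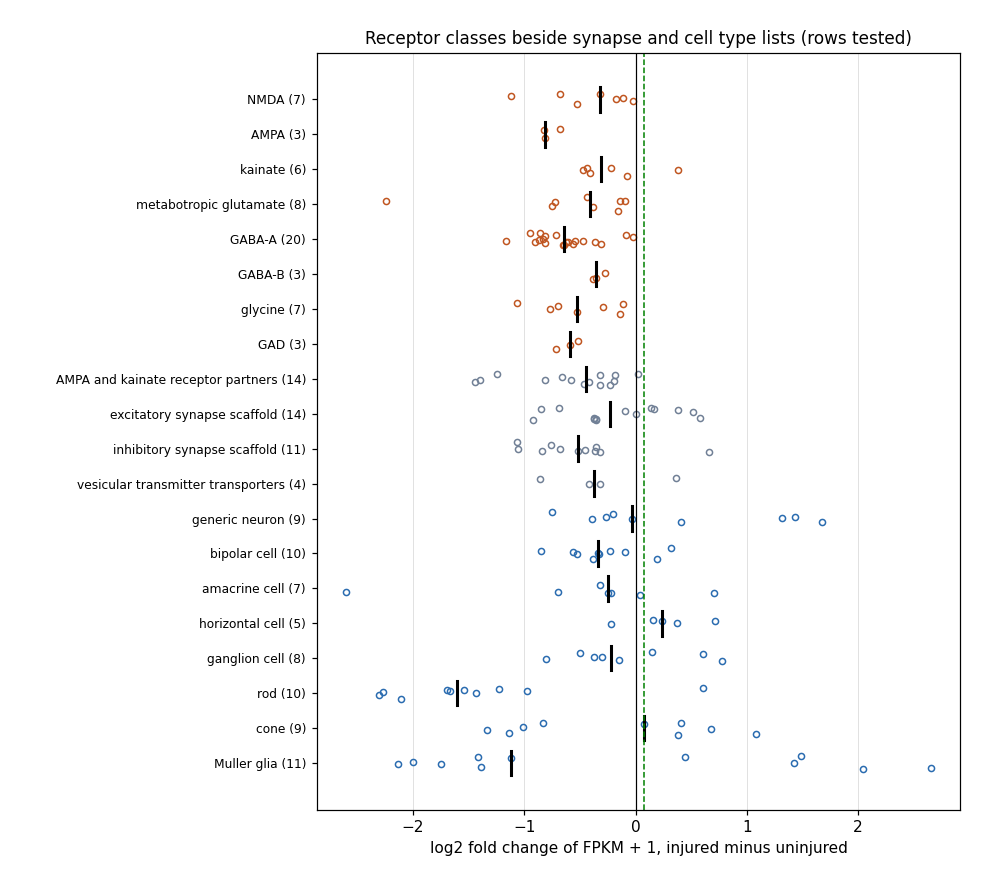
The log2 fold change of FPKM + 1 from uninjured to injured of each tested row (circles) in the receptor classes, the synapse lists and the cell type lists, with the number of rows in brackets, the median of each list as a bar and the median of all rows tested as a dashed line at 0.08. The medians of the receptor classes lie between -0.81 (AMPA) and -0.31 (kainate). Those of the generic neuron, bipolar, amacrine, horizontal and ganglion cell lists lie between -0.33 (bipolar cell) and 0.24 (horizontal cell), and that of the rod list is -1.60.

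The next comparison asked whether receptor genes differed between injured retinas with and without the apobec2 knockdown. Here 0 of 53 rows tested were called by limma, in either direction, beside 6.0% of 17017 rows called lower and 3.03% called higher, or 9.03% in all, and 9 members had an unadjusted p under 0.05 (30.4% of all rows). Both knockdown libraries lay above both injured ones in 24 of 53 members (28.8% of all rows) and below them in 8 (33.0% of all rows), and the median log2 fold change was 0.11 over the members and -0.02 over all rows. The summed level of the 65 rows was 1342 and 1346 FPKM in the injured group and 1498 and 1573 FPKM with the knockdown. It thus remained below the uninjured sums. The largest positive differences were those of gabrr2a and GLRA3. The level of gabrr2a was 29.9 and 31.4 FPKM in the injured group and 42.6 and 43.2 FPKM with the knockdown (log2 fold change 0.47 ± 0.10, adjusted p = 0.0608). This difference did pass with a trend in the prior variance (adjusted p = 0.0285) and with all 3 groups in the fit (adjusted p = 0.0492). Over the alternatives that kept all libraries, the adjusted p in limma ranged from 0.0285 to 0.105. GLRA3 was at 21.3 and 17.8 FPKM in the injured group and 28.2 and 26.6 FPKM with the knockdown (log2 fold change 0.47 ± 0.13, adjusted p = 0.1).

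The genes with the highest levels did not pass the test between these 2 groups. In knockdown libraries grin1b was at 313 and 332 FPKM, grin1a at 158 and 163 FPKM, gad1b at 241 and 246 FPKM and gad2 at 109 and 119.7 FPKM. For glrba the level was 76.8 and 80.2 FPKM. Each of these 5 genes was higher in both knockdown libraries than in either injured one, with log2 fold changes between 0.14 and 0.38 that did not pass. The most negative values were found for GABRB1, gabra6a and GRM8 (2 of 2). For gabra6a the knockdown libraries were at 6.05 and 5.18 FPKM, below both injured ones (log2 fold change -0.39 ± 0.12, adjusted p = 0.115), and for GABRB1 and GRM8 (2 of 2) the log2 fold changes were -0.41 and -0.39. GRM2 (2 of 2), at 1.57 and 1.5 FPKM in the knockdown, stayed low.

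Further members with a call after injury, or with the highest level of their class, were compared library by library. Among glutamate receptor genes, grin2aa was at 13.5 and 14.8 FPKM in knockdown libraries, gria4a at 7.66 and 8.0 FPKM, gria1b at 3.67 and 4.64 FPKM and gria1a at 2.31 and 2.39 FPKM. The kainate receptor rows grik1a and GRIK1 (1 of 2) were at 44.7 and 43.0 FPKM and at 19.9 and 21.7 FPKM, and the metabotropic row GRM2 (1 of 2) at 3.84 and 3.89 FPKM. Of these, grin2aa, gria1a, grik1a and GRM2 (1 of 2) lay above both injured libraries, and the others overlapped with them. Among GABA-A receptor genes, gabrd was at 35.2 and 46.7 FPKM, gabrb2 at 17.1 and 19.8 FPKM, gabrr1 at 25.7 and 28.1 FPKM, GABRA2 (1 of 3) at 9.79 and 9.88 FPKM and gabra6b at 6.48 and 9.36 FPKM. GABRA2 (3 of 3) was at 4.55 and 6.89 FPKM, GABRA6 at 4.05 and 6.84 FPKM, gabrp at 2.84 and 3.60 FPKM and GABRG1 at 2.07 and 1.15 FPKM. Here gabrd, GABRA2 (1 of 3) and GABRA6 lay above both injured libraries, gabrp lay below both, and the others overlapped. The remaining inhibitory genes were gabbr1b at 6.10 and 6.33 FPKM, glra1 at 9.66 and 8.15 FPKM and gad1a at 1.02 and 0.74 FPKM, of which gabbr1b and glra1 lay above both injured libraries.

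Among 43 other synapse rows tested 1 was lower, kctd12.2, at 10.7 and 9.62 FPKM (log2 fold change -1.35 ± 0.13, adjusted p = 0.0127). In the same comparison 6.0% of all rows were called lower and 3.03% higher. Of the markers of generic neurons, bipolar, amacrine, horizontal or ganglion cells or rods, 0 were called. Lower in the knockdown were 14 of 15 microglia or macrophage markers, 12 of 16 cell cycle genes and 6 of 9 cone markers. So were 2 of 7 oligodendrocyte, 2 of 4 pigment epithelium and 1 of 4 endothelium or pericyte markers. Of 11 MG marker rows 1 was higher and 2 were lower. The part of any of these cells in the receptor values was not tested.

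Against uninjured libraries, which the first comparison shares, 20 of 58 rows were lower in the knockdown and 0 higher, beside 13.5% of 16777 rows lower and 22.1% higher, with a median log2 fold change of -0.35 over the members. With any library left out, fewer members were called lower, as were fewer of all rows. The members' median then lay between -0.45 and -0.31, or between -0.49 and -0.36 relative to the median of all rows. With all libraries kept, the lowest log2 fold changes were -2.47 for GRM2 (2 of 2) (adjusted p = 0.00125) and -1.55 for gabra6a (adjusted p = 0.00289). Then came gabrp with -1.08 (adjusted p = 0.0165) and grin1a with -0.92 (adjusted p = 0.00613). By class, 7 of 20 GABA-A rows, 4 of 8 metabotropic glutamate rows, 2 of 3 AMPA rows, 2 of 3 gad rows, 2 of 8 NMDA rows, 2 of 7 glycine rows, 1 of 6 kainate rows and 0 of 3 GABA-B rows were lower. GABRB1, GRIK3 and GRM8 (2 of 2) were among those called here, with log2 fold changes of -0.49, -0.57 and -0.83.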

How the data were processed

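RNAseq was done by the authors on RNA of FACS purified GFP+ cells, with CASAVA, TopHat and Bowtie2 named in the submitters' processing notes. The authors deposited FPKM per gene row and library, rounded to 0.01, in a table laid out as by Cuffdiff that lists each row 3 times with the same values. Genome build and annotation are not given in the sources used here. A further 6 per-library columns of scaled fragments, which are not raw counts, were left out, and so were the table's pooled means, fold changes, p-values and q-values.

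Per row, log2(FPKM + 1) was compared with limma 3.58.1 in R 4.3.3 (lmFit, eBayes) over the 4 libraries of both groups. Rows needed 1 FPKM or more in 2 of these, and p was adjusted after Benjamini and Hochberg over all rows tested, with a threshold of 0.05. The limma step was tested on simulated data. SE is that of limma. Members and lists were chosen with earlier results of these data known. By rule, the text gives the value in every library for the highest row of each class, for each member called in the injury or the knockdown comparison and for a fixed set of names, and of other synapse genes it names those with the largest called changes. A few genes that the rule takes in are counted but not reported here. Loci of 20 members overlap another row. The median of the 5S rRNA rows above 0 differed between libraries a (19.8 to 26.5 FPKM) and b (0.51 to 0.94 FPKM). Alternatives changed the pseudocount (0.1), the scaling (quantile, or median of ratios), the prior variance (with a trend), the samples (all 3 groups), the filter (none, or above 5 FPKM in either group's mean) and the unit (rows summed by symbol), added a block for the library index, or left out a library. A count over members with no overlapping row was added after seeing the data. Python 3.11.15, NumPy 2.4.6, pandas 2.3.3, SciPy 1.17.1 and Matplotlib 3.10.9 were used.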

Additional observations from a re-analysis of the deposited data

How the results depend on the processing

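A member was counted only in the alternatives that tested it, and the filter above 5 FPKM left out gria1a and gad1a among others. All 28 members called lower after injury had a negative log2 fold change under every alternative. Of these, 24 were called in every alternative that kept all libraries (GABRA2 (3 of 3), GABRA6 and GABRG1 were among the other 4), and 10 were called with any 1 library left out (among them both GRM2 rows, gabra6a, gabrb2, gabrd, glrba, gria1b and grin1a). The count of members called after injury was 43 with quantile normalization, 11 to 21 with a library left out, 22 of 39 among members with no overlapping row, and between 24 and 32 otherwise. For the knockdown against injured it was 1, gabrr2a, with a trend in the prior variance and also with all 3 groups in the fit, and 0 otherwise. For the knockdown against uninjured (20) it was 3 to 7 with a library left out. Of the synapse genes, the count after injury (24) was 11 to 12 with a library left out. That in the knockdown against injured (1) was 0 with a library left out and 2 with quantile normalization, with scaling by median of ratios, with a trend in the prior variance, with all 3 groups fitted, with a filter above 5 FPKM and with summed rows. That against uninjured (17) was 3 to 9 with a library left out and 11 with the library index as a replicate block. The number of members expressed was 33 at 5 FPKM and 61 at 0.5 FPKM in place of 58 at 1 FPKM. The cause of these differences was not tested. A library left out leaves a group with 1 library, which is then assumed to vary like the other group. Over all rows, too, fewer were called in each comparison when a library was left out.

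The replicate numbers of the labels were not matched to the table's columns, which carry an index of their own (a and b here). Across 17710 rows the a minus b differences had correlations of 0.111 to 0.143 between groups, and nothing in the labels says that the index pairs libraries. With this index as a replicate block, 29 members were called after injury, 0 in the knockdown against injured and 17 against uninjured.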
